A study of Mus musculus with 22 samples.

Results

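The genes described here are 9 members of the oxidative folding machinery of the endoplasmic reticulum (ER): Agr2, Agr3, P4hb, Pdia3, Pdia4, Pdia5, Pdia6, Txndc5 and Txndc11. They were taken as the rows of the count table that carry these symbols, and all 9 were found among its 46078 genes. RNA-Seq had been performed on poly(A) RNA from pieces of distal colon, 1 library per sample, to compare the spontaneous colitis of Winnie mice with healthy colon. The 8 C57BL/6 control libraries came from mice aged 14 weeks, 4 male and 4 female. The 7 Winnie libraries came from mice of the same age, 3 male and 4 female, which carry a missense mutation of Muc2, the gel-forming mucin of goblet cells, and whose tissue is labelled as inflamed. The 7 Winnie-Prolapse libraries came from Winnie mice with prolapse aged 18 weeks, 4 male and 3 female, with tissue labelled as severely inflamed. Prolapse and the greater age cannot be told apart in this design, and no control libraries of 18 weeks were analysed here.

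Protein disulfide isomerases are thioredoxin-fold enzymes that form, break and rearrange disulfide bonds in proteins entering the secretory pathway, and several of them also act as chaperones. Agr2 is an isomerase with a thioredoxin-like fold that is made in large amounts by goblet cells, is known to bind immature mucin and is needed for mucin production in the intestine. Agr3 is its close relative and chromosomal neighbour. In secretory cells many of these genes are known targets of the unfolded protein response, in which the transcription factors Xbp1 and Atf6 act on short promoter motifs.

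The libraries held 24817527 to 36344372 counts. Levels are given as CPM, the counts of a gene scaled to the total of its library. A fold change came from an edgeR quasi-likelihood fit of the 2 groups over all genes, as log2 fold change ± standard error (SE), and calling a gene required an adjusted p under 0.001 together with a 1.5-fold change, which are the study's limits. The 9 genes were chosen by their levels and fold changes in the 3 group comparisons of these same libraries, so their values in these comparisons are a description and their calls are not independent evidence. A summed level of 8 epithelial markers, which mark intestinal epithelium in general and not the colon, lay between 10024 and 18484 CPM in all libraries, while 10 markers of absorptive colonocytes ranged from 517.1 to 12706 CPM and 10 of squamous epithelium reached 3364 CPM in a Winnie-Prolapse library. A female Winnie-Prolapse library, replicate 6, stood apart, with 179624 CPM from 6 milk protein genes against at most 54.2 CPM in the other libraries. Winnie replicate 5 gave the lowest Winnie level of P4hb, Pdia3, Pdia4 and Txndc11. In whole tissue, fewer cells of a type and less RNA per cell cannot be told apart.

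Promoter sequence was available from RefSeq (GRCm38.p6) for all 9 genes, as windows from 250 bases before to 50 bases after an annotated start. The windows were searched on both strands for the ER stress response element ERSE (CCAAT and CCACG with 9 bases of any kind between them), for ERSE-II (ATTGG and CCACG with 1 base between them) and for the unfolded protein response element UPRE (TGACGTGG). ERSE was held by 0.119% of 32851 windows of the same length, ERSE-II by 0.0365% and UPRE by 0.676%. Pdia6 held the only ERSE match among the 9 genes, on its own strand, from 98 to 80 bases before the start. Txndc11 held a UPRE match from 102 to 95 bases before a start. Txndc5 held a UPRE match from 138 to 131 bases before the most downstream of its 3 annotated starts. The other genes, Agr2 among them, held no match to these letters in their windows, and no window of the 9 genes held ERSE-II. The Txndc5 and Txndc11 matches lie within annotated exons of those genes, so 30 bases are shown for each. Agr2, which lacks a match, and Pdia6, which holds one, are shown up to the first annotated exon because their levels went together among libraries (r = 0.85 within groups, described further on). A match or its absence in these windows says nothing of whether a factor binds. Capitals mark the ERSE or UPRE match.
Agr2 promoter, chr12:35992675-35992906, plus strand: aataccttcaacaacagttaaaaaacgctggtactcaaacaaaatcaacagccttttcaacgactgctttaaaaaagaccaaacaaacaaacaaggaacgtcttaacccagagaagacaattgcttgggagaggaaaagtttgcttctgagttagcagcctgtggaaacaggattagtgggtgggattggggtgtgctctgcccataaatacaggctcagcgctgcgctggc
Pdia6 promoter, chr12:17266339-17266544, plus strand: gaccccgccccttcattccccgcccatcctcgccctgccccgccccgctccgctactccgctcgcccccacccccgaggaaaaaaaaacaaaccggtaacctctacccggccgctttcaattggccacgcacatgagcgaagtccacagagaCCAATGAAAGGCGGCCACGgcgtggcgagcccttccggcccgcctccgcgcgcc
Txndc11 match, chr16:11134616-11134645, minus strand: tgaagtgtggcTGACGTGGagagtccgggt
Txndc5 match, chr13:38528034-38528063, minus strand: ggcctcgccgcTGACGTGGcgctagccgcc

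Agr2 had the highest level per kilobase of exon of the 9 genes and, of the 8 that could be fitted, the largest fold changes against C57BL/6. It lies at chr12:35992907-36004087 on the plus strand (GRCm38, GENCODE annotation), with no overlapping gene. In C57BL/6 colon its level was 476 ± 75.5 CPM (SD, n = 8), with a lowest library of 378.6, a median of 482.6 and a highest of 620.8 CPM. In Winnie colon it was 1305 ± 390 CPM (SD, n = 7), from 800.6 through a median of 1312 to 1899 CPM. In Winnie-Prolapse colon it was 1256 ± 311 CPM (SD, n = 7), from 884.4 through a median of 1187 to 1723 CPM. All 14 Winnie and Winnie-Prolapse libraries lay above all 8 C57BL/6 libraries, while the 2 mutant groups spanned nearly the same range. The fitted log2 fold change against C57BL/6 was 1.55 ± 0.19 in Winnie and 1.49 ± 0.16 in Winnie-Prolapse, and both met the call limits. Between Winnie-Prolapse and Winnie it was -0.06 ± 0.23 and was not called.

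In Winnie against C57BL/6, Agr2 was the only one of the 8 members tested that was called, in a comparison where 0.0868% of 17289 genes were called higher and 0.00578% lower. All 8 members tested had a positive log2 fold change there, from 0.49 to 1.55. The Agr2 call was made in 4 of the 15 fits that left out 1 library each (those without C57BL/6 replicate 7 or without Winnie replicate 3, 4 or 5), while over the 15 fits its log2 fold change stayed between 1.43 and 1.66. The other 11 fits called 0 to 6 of all genes. Without Winnie replicate 5, 5 members were called (Agr2, P4hb, Pdia3, Pdia4 and Pdia5), in a fit that called 3.89% of all genes in either direction. DESeq2 called 5 on all libraries (Agr2, Pdia3, Pdia4, Pdia5 and Pdia6), and 4.11% of all genes. The Agr2 call was not made by limma-voom or when at least 10 counts were required in every library, but these fits called 0 of all genes tested (17289 and 15153), so that the loss is not particular to Agr2. At an adjusted p under 0.05 with 1.5-fold, Agr2, Pdia3, Pdia4, Pdia5 and Pdia6 passed, where 7.42% of all genes did so in the higher direction. In Winnie-Prolapse against C57BL/6, 7 of the 8 members tested were called higher (Agr2, P4hb, Pdia3, Pdia4, Pdia6, Txndc5 and Txndc11), where 9.84% of 17397 genes were called higher and 8.47% lower. Pdia5 was the member tested and not called. Txndc5 was lost, leaving 6 members called, without Winnie-Prolapse replicate 1 or 6, without C57BL/6 replicate 2 and with library sizes not scaled by TMM, in fits that called 15.3% to 17.7% of all genes in either direction. Between the 2 mutant groups edgeR called 0 of 8 members and 0.0% of 17041 genes. In that comparison 1 member, P4hb, had an unadjusted p under 0.05, against 27.8% of all genes, and DESeq2 and limma-voom also called 0 members, where DESeq2 called 2.19% of all genes. The comparisons with C57BL/6 share their control libraries.

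**Figure D1:**
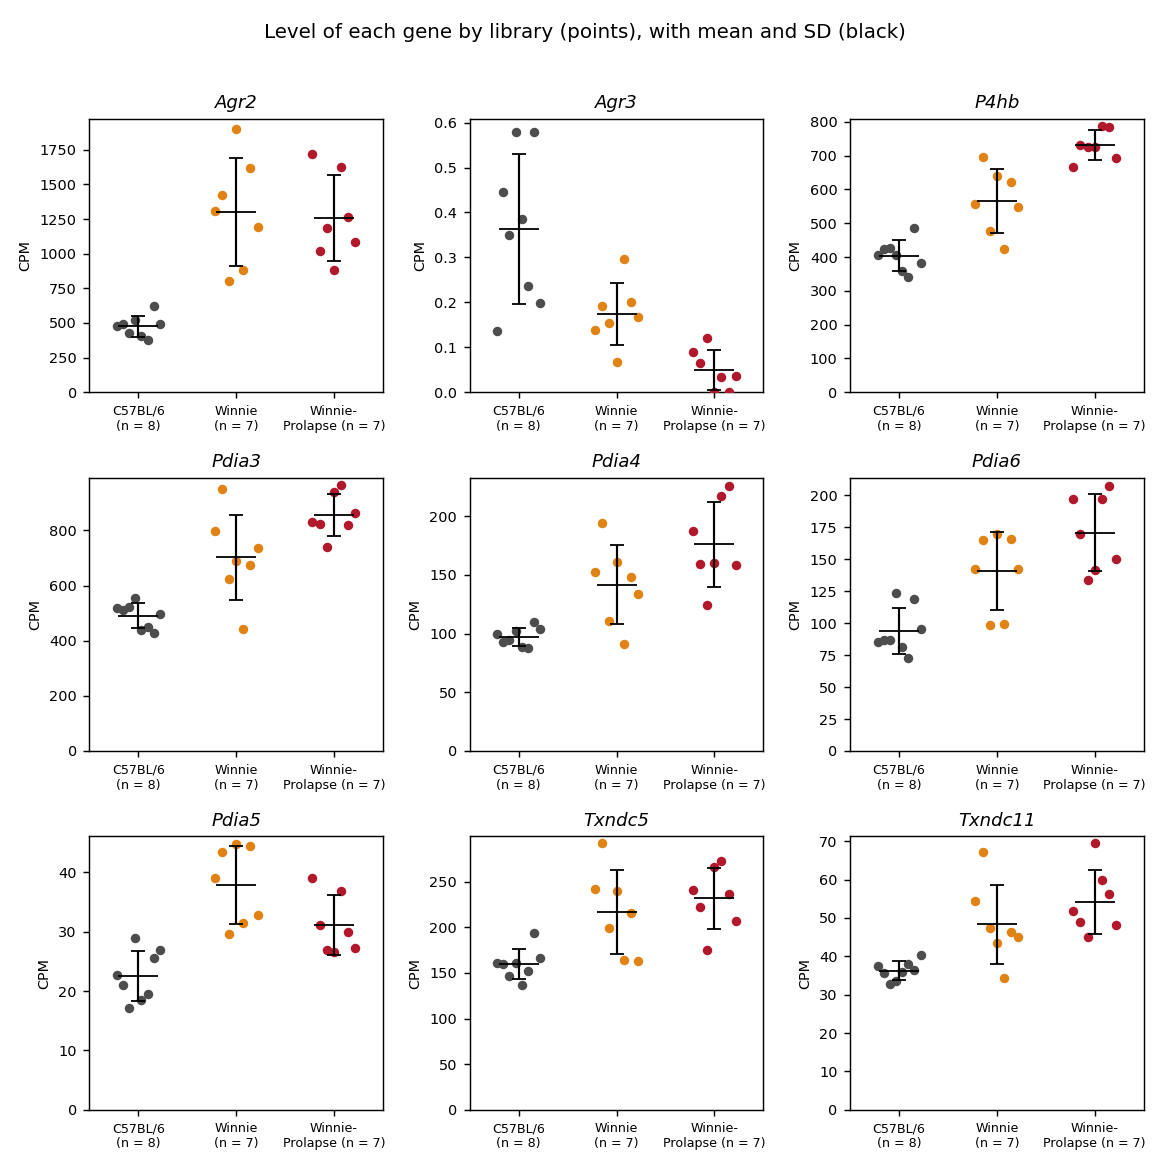
Level of each of the 9 genes in CPM on a linear axis from 0, with 1 point per library, the mean as a black dash and the SD as a black bar. Agr2 in every Winnie and Winnie-Prolapse library, between 800.6 and 1899 CPM, lay above the highest C57BL/6 library at 620.8 CPM, and Agr3 was near the counting floor in Winnie-Prolapse.

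The classical isomerases P4hb and Pdia3 formed the next tier of expression. P4hb, which is both protein disulfide isomerase and the beta subunit of prolyl 4-hydroxylase (chr11:120560298-120573253, minus strand), was at 404 ± 45.1 CPM (SD, n = 8) in C57BL/6, from 340.0 through a median of 405.2 to 486.1 CPM. It was at 566 ± 94.6 CPM (SD, n = 7) in Winnie, from 425.0 through 557.7 to 696.7 CPM. In Winnie-Prolapse it was at 730 ± 43.9 CPM (SD, n = 7), from 666.8 through 725.1 to 786.8 CPM. Thus 5 of 7 Winnie libraries and 7 of 7 Winnie-Prolapse libraries exceeded every C57BL/6 library. Against C57BL/6 the log2 fold change of P4hb was 0.58 ± 0.12 in Winnie, 0.95 ± 0.10 in Winnie-Prolapse, and it was 0.37 ± 0.14 between the mutant groups.

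Pdia3, the isomerase that works with calnexin and calreticulin on glycoproteins and sits in the MHC class I peptide-loading complex (chr2:121413775-121438687, plus strand), was at 490 ± 45.6 CPM (SD, n = 8) in C57BL/6, from 429.0 to 555.4 CPM around a median of 505.6 CPM. Its level was 702 ± 156 CPM (SD, n = 7) in Winnie, from 443.8 to 948.8 around a median of 689.3 CPM. It was 855 ± 76.6 CPM (SD, n = 7) in Winnie-Prolapse, from 739.2 to 965.3 around a median of 832.2 CPM. Winnie replicate 5 was the single Winnie library inside the C57BL/6 range, and Winnie-Prolapse did not overlap with C57BL/6. Its log2 fold change was 0.60 ± 0.13 in Winnie and 0.89 ± 0.09 in Winnie-Prolapse. Pdia3 overlaps Catsper2 on the other strand, and the strand setting of the counting is not given in the sources used here.

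Pdia4 and Pdia6 are isomerases of ER chaperone complexes around Hspa5 (BiP) and Hsp90b1. Pdia4 (chr6:47796141-47813430, minus strand) was at 97.4 ± 7.7 CPM (SD, n = 8) in C57BL/6, from 87.97 through 97.09 to 109.7 CPM. It was at 142 ± 33.6 CPM (SD, n = 7) in Winnie, from 91.51 through 148.1 to 193.8 CPM. In Winnie-Prolapse it was at 176 ± 36.1 CPM (SD, n = 7), from 124.2 through 160.4 to 225.9 CPM. Here 6 of 7 Winnie libraries lay above the C57BL/6 range, the exception being replicate 5, as did all 7 Winnie-Prolapse libraries. The log2 fold change was 0.63 ± 0.13 in Winnie and 0.95 ± 0.13 in Winnie-Prolapse. Pdia6 (chr12:17266545-17284770, plus strand), the gene with the ERSE match, was at 93.9 ± 18.1, 140 ± 30.5 and 171 ± 29.9 CPM in the 3 groups (SD, n = 8, 7 and 7). Its C57BL/6 libraries ran from 73.10 to 123.6 CPM, its Winnie libraries from 98.75 to 169.6 CPM and its Winnie-Prolapse libraries from 133.8 to 207.2 CPM. Among Winnie libraries 5 of 7 were above the C57BL/6 range, and in Winnie-Prolapse 7 of 7 were. For Pdia6 the log2 fold change was 0.68 ± 0.15 in Winnie and 0.96 ± 0.14 in Winnie-Prolapse. The highest Winnie-Prolapse library of Pdia4 and of Pdia6 was replicate 6, which stood apart by its milk protein genes. Mean CPM in Winnie-Prolapse over that in Winnie was 1.24 for Pdia4 and 1.22 for Pdia6. Without that library and Winnie replicate 5, which was low for both genes, it was 1.12 for each. These libraries were left out after their values were seen, and leaving them out had to lower the ratio. Pdia6 overlaps Atp6v1c2 on the other strand, and Pdia4 contains the miRNA gene Mir704.

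Pdia5, a less studied isomerase known to act on Atf6 (chr16:35397312-35490873, minus strand), had its highest mean in Winnie. It was at 22.5 ± 4.2 CPM (SD, n = 8) in C57BL/6, from 17.20 through 21.82 to 28.88 CPM. It was at 37.9 ± 6.5 CPM (SD, n = 7) in Winnie, from 29.54 through 39.04 to 44.68 CPM, and at 31.1 ± 5.0 CPM (SD, n = 7) in Winnie-Prolapse, from 26.51 through 30.02 to 39.12 CPM. All 7 Winnie libraries lay above the C57BL/6 range, but 4 of 7 Winnie-Prolapse libraries did. The log2 fold change was 0.84 ± 0.14 in Winnie, 0.55 ± 0.13 in Winnie-Prolapse and -0.29 ± 0.14 between the mutant groups, none of them called. Agr2 and Pdia5 were the 2 members that did not overlap between Winnie and C57BL/6, a separation shown in the higher direction by 0.463% of all genes tested. In Winnie-Prolapse 6 of the 8 members tested lay wholly above C57BL/6 (Agr2, P4hb, Pdia3, Pdia4, Pdia6 and Txndc11), against 6.5% of all genes tested.

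Txndc5 and Txndc11 are thioredoxin-domain proteins of the ER. Txndc5, which is abundant in plasma cells and fibroblasts (chr13:38500079-38528824, minus strand), was at 160 ± 16.7 CPM (SD, n = 8) in C57BL/6, from 137.1 through 160.1 to 193.9 CPM. It was at 217 ± 46.1 CPM (SD, n = 7) in Winnie, from 163.4 through 215.8 to 291.9 CPM, and at 232 ± 33.7 CPM (SD, n = 7) in Winnie-Prolapse, from 175.5 through 237.0 to 272.3 CPM. The groups overlapped, with 5 of 7 Winnie and 6 of 7 Winnie-Prolapse libraries above the C57BL/6 range. Its log2 fold change was 0.52 ± 0.12 in Winnie and 0.62 ± 0.10 in Winnie-Prolapse. Txndc11, a membrane-anchored protein known to bind the dual oxidases that make hydrogen peroxide at the epithelial surface (chr16:11074911-11134650, minus strand), was at 36.3 ± 2.5, 48.3 ± 10.2 and 54.2 ± 8.4 CPM in the 3 groups (SD, n = 8, 7 and 7). Its ranges were 32.66 to 40.38 CPM in C57BL/6, 34.35 to 67.12 CPM in Winnie and 45.05 to 69.41 CPM in Winnie-Prolapse. Winnie replicate 5 was within the C57BL/6 range and the other 6 Winnie libraries were above it. The log2 fold change was 0.49 ± 0.11 in Winnie and 0.66 ± 0.09 in Winnie-Prolapse. Both genes have genes on the other strand within their span, Bmp6 among those of Txndc5 and Snn in that of Txndc11.

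**Figure D2:**
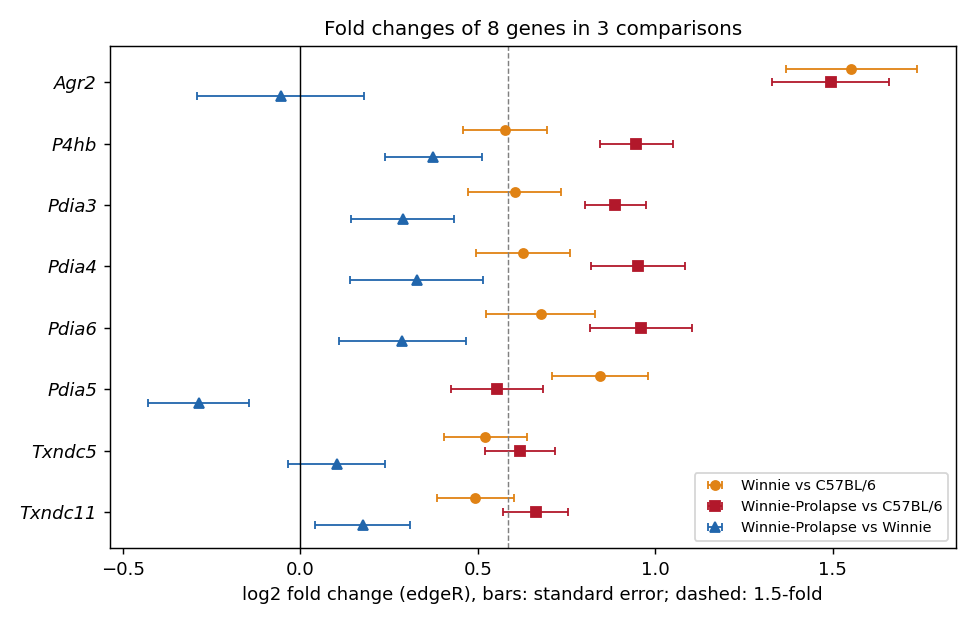
Fitted log2 fold change of the 8 genes tested, with bars for the standard error, for Winnie and Winnie-Prolapse against C57BL/6 and for Winnie-Prolapse against Winnie; the dashed line marks 1.5-fold. Agr2 lay at 1.55 and 1.49 against C57BL/6 and at -0.06 between the mutant groups, and Pdia5 was the only other gene with a negative value between the mutant groups, at -0.29.

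Agr3 was scarce and ran the other way. It lies at chr12:35925620-35949736 on the plus strand, 43170 bases before Agr2. Its counts summed to 82 over the C57BL/6 libraries, 38 over the Winnie libraries and 11 over the Winnie-Prolapse libraries, or 0.362, 0.174 and 0.0522 CPM over the pooled libraries. Single libraries held 4 to 16 counts in C57BL/6, 2 to 9 in Winnie and 0 to 4 in Winnie-Prolapse, where 3 counts correspond to 0.0825 to 0.121 CPM. All 7 Winnie-Prolapse libraries were below all C57BL/6 libraries. The ratio of the summed levels was 2.08 (95% exact interval 1.40 to 3.14) for C57BL/6 over Winnie and 6.92 (3.67 to 14.4) for C57BL/6 over Winnie-Prolapse, intervals that cover counting error only and not the spread among mice. Agr3 did not pass the filter on low counts in the main group fits and so has no fold change here. In Winnie-Prolapse it was called lower by edgeR without that filter or with sex as a covariate, and by DESeq2. These fits called 10.6%, 17.8% and 16.8% of all genes in either direction.

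Per kilobase of annotated exon, the order of levels was the same in the 3 groups. Agr2 was highest, at 369, 1010 and 973 CPM per kilobase in C57BL/6, Winnie and Winnie-Prolapse. Pdia3 followed at 156, 224 and 272 CPM per kilobase and P4hb at 141, 198 and 255 CPM per kilobase, and the ranges of these neighbours overlapped in each group. Pdia4, Txndc5 and Pdia6 came next, each overlapping its neighbour in this order. Pdia5, Txndc11 and Agr3 followed, with no overlap between neighbours. The 9 genes together took 0.178% ± 0.016, 0.316% ± 0.068 and 0.351% ± 0.041 of all counts in C57BL/6, Winnie and Winnie-Prolapse (SD, n = 8, 7 and 7).

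Relative to other genes Agr2 was also higher in the mutant groups. It made up 26.6% ± 2.0, 40.8% ± 5.1 and 35.5% ± 5.3 of the CPM of the 9 genes in C57BL/6, Winnie and Winnie-Prolapse (SD, n = 8, 7 and 7, as for the ratios that follow). Its CPM per CPM of P4hb was 1.18 ± 0.10, 2.27 ± 0.42 and 1.73 ± 0.46. The Winnie libraries, from 1.68 to 2.97, did not overlap with C57BL/6, whose highest ratio was 1.28, whereas the lowest Winnie-Prolapse ratio was 1.22. Per CPM of Epcam, a surface protein of all intestinal epithelial cells, Agr2 was at 0.286 ± 0.044, 0.794 ± 0.216 and 0.814 ± 0.231. Per CPM of Muc2 it was at 0.145 ± 0.030, 0.633 ± 0.092 and 0.688 ± 0.161. The lowest ratio to Muc2 of a mutant library was 0.499 and the highest of a C57BL/6 library 0.173, so that neither the ratio to Muc2 nor that to Epcam overlapped between C57BL/6 and the mutant groups. These ratios rest on the Agr2 values by which the gene was chosen and were not tested.

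**Figure D3:**
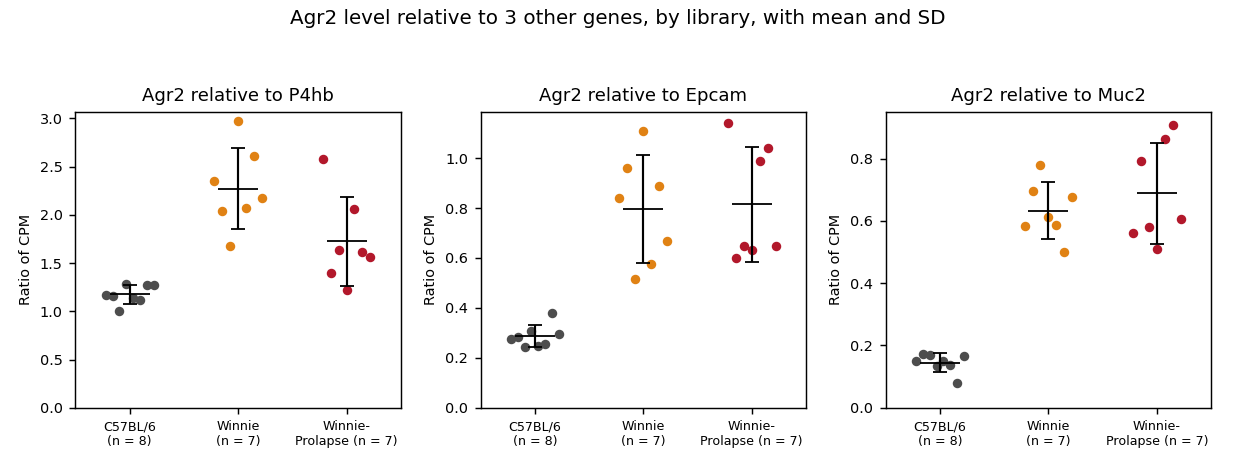
Agr2 CPM divided by the CPM of P4hb, of Epcam and of Muc2, 1 point per library on linear axes from 0, with mean and SD. The ratio to Muc2 was at most 0.173 in C57BL/6 and at least 0.499 in the other groups.

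Muc2 itself was at 3594 ± 1791, 2135 ± 813 and 1889 ± 589 CPM in C57BL/6, Winnie and Winnie-Prolapse (SD, n = 8, 7 and 7, as for the marker sums that follow), with log2 fold changes of -0.65 ± 0.29 and -0.84 ± 0.27 that were not called. C57BL/6 replicate 7, at 7901 CPM, raised the C57BL/6 mean and SD. Its log2 CPM was 12.95, against 11.29 to 11.93 in the other C57BL/6 libraries. Sums of cell type markers are given beside these levels. The summed level of 12 goblet cell markers was 9713 ± 2628, 9698 ± 6195 and 4322 ± 3034 CPM, with medians of 10008, 6837 and 2357 CPM. Winnie replicates 4 and 6, at 19383 and 17883 CPM, carried the Winnie mean, the other 5 libraries lying between 4328 and 7321 CPM. Of the 11 tested, Spink4 was called higher and Clca1 lower in Winnie-Prolapse, where 9.84% of all genes were called higher and 8.47% lower. These counts are near those shares and are not a result about the list. The summed level of 12 plasma cell markers was 1132 ± 486, 4322 ± 2029 and 6910 ± 1798 CPM, ranging from 600.9 to 2000, from 2029 to 7267 and from 4212 to 8766 CPM. In Winnie-Prolapse 7 of 12 were called higher, against 9.84% of all genes. Plasma cells are known to hold large amounts of P4hb, Pdia4, Pdia6 and Txndc5 as they assemble antibodies. The summed level of 10 smooth muscle markers was 9085 ± 1788, 4750 ± 2244 and 2406 ± 823 CPM. In Winnie-Prolapse 10 of 10 were called lower, against 8.47% of all genes. In Winnie edgeR called 0 of 10, and 10 of 10 were lower at an unadjusted p under 0.05, against 39.9% of all genes. The summed level of 8 epithelial markers was 14067 ± 626, 15701 ± 1554 and 14216 ± 2574 CPM. By edgeR 0 of 8 were called in either comparison with C57BL/6, against 0.0925% of all genes in Winnie and 18.3% in Winnie-Prolapse. In each comparison 3 of 8 had an unadjusted p under 0.05, against 39.9% of all genes in Winnie and 58.5% in Winnie-Prolapse. Absorptive colonocyte markers, 10 in number, summed to 9576 ± 1759, 5969 ± 3541 and 1588 ± 1498 CPM, 10 fibroblast markers to 1061 ± 97.3, 928 ± 414 and 1496 ± 689 CPM, and 10 squamous epithelium markers to 76.8 ± 16.4, 97.9 ± 38.2 and 1015 ± 1250 CPM. Winnie-Prolapse replicates 2, 4 and 7, at 2029, 998.0 and 3364 CPM, carried the last of these means. The other Winnie-Prolapse libraries held 86.1 to 294.9 CPM of squamous markers. Of those tested in Winnie-Prolapse, 3 of 9 colonocyte markers were called lower, against 8.47% of all genes. Of the fibroblast markers edgeR called 0 of 10, against 9.84% of all genes called higher and 8.47% lower. Among them 8 of 10 had an unadjusted p under 0.05, against 58.5% of all genes. Only 5 of the 10 squamous markers passed the filter there and 3 in Winnie, so no count of calls is given for them. The part of these shifts in the levels of the 9 genes was not tested.

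Related genes were read from 5 lists of 57 genes, 4 of them of the ER folding machinery and 1 of 10 known partners of the members, and 54 passed the filter. In Winnie-Prolapse against C57BL/6, 19 of the 54 were called higher and 1 lower, against 9.84% and 8.47% of all genes, with a median log2 fold change of 0.38 against -0.01 over all genes tested. The partners supplied 5 of the higher calls, and the machinery without them had 14 of 44 called higher and 1 lower. In Winnie against C57BL/6 edgeR called 0 of 54, with a median of 0.20 against -0.01, while 37 had an unadjusted p under 0.05, against 39.9% of all genes tested. DESeq2 called 10 of these genes and 4.11% of all genes, and limma-voom 0. Without Winnie replicate 5, edgeR called 9, and 3.89% of all genes. Between the mutant groups 0 of 54 were called by edgeR, 20 had an unadjusted p under 0.05 against 27.8% of all genes, and DESeq2 and limma-voom called 0. ER chaperones made up 10 of the 20 calls. In Winnie-Prolapse 10 of 14 rose and none fell, and the median log2 fold change of the 14 was 1.11. Hspa5, the chaperone that holds the stress sensors inactive, rose by 1.40 ± 0.17 on the log2 scale, from 295 ± 60.6 (SD, n = 8) to 726 ± 145 CPM (SD, n = 7). Calr, the calreticulin partner of Pdia3, rose by 1.14 ± 0.11, and Hsp90b1, the ER form of Hsp90, by 1.08 ± 0.15. Canx, the calnexin partner of Pdia3, was not called, with a log2 fold change of 0.38 ± 0.10. Of the other PDI family members 1 of the 10 tested rose, a share near the 9.84% of all genes. This was Dnajc10, a reductase that takes part in ER-associated degradation, with a log2 fold change of 0.82 ± 0.12. Erp44, which retains oxidases and secretory proteins in the ER, had 0.36 ± 0.07, the membrane-bound isomerase Tmx1 had 0.37 ± 0.06, and Erp29 had 0.21 ± 0.08, none of them called. The median of these 10 genes was 0.13.

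Among 10 oxidases and reductants, 2 rose and 1 fell in Winnie-Prolapse, where 9.84% of all genes were called higher and 8.47% lower, so that these counts are not a result about the list. Ero1a, the oxidase that recharges P4hb, rose by 1.18 ± 0.15 on the log2 scale, from 52.8 ± 8.5 (SD, n = 8) to 112 ± 25.2 CPM (SD, n = 7). The peroxidase Prdx4 and the vitamin K reductase Vkorc1 were the other genes called, 1 of them higher and 1 lower. Selenof had 0.47 ± 0.08 and Vkorc1l1 0.09 ± 0.07, and were not called. Qsox1, a secreted sulfhydryl oxidase, had 0.83 ± 0.56 and was not called, at 223 ± 336 CPM (SD, n = 7) in Winnie-Prolapse. Replicate 6 alone, at 983.8 CPM, carried this value, and without it the level was 96.7 ± 14.2 CPM (SD, n = 6) and the log2 fold change turned to -0.57. Among 10 sensors and factors of the unfolded protein response 1 rose in Winnie-Prolapse, again near the share of all genes. It was Xbp1, with a log2 fold change of 0.93 ± 0.12. Atf4 had 0.56 ± 0.08, below the 1.5-fold limit, Atf6 0.13 ± 0.11 and Creb3l1, which goblet cells also express, 0.23 ± 0.15. The lists were written with earlier results of these data known.

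**Figure D4:**
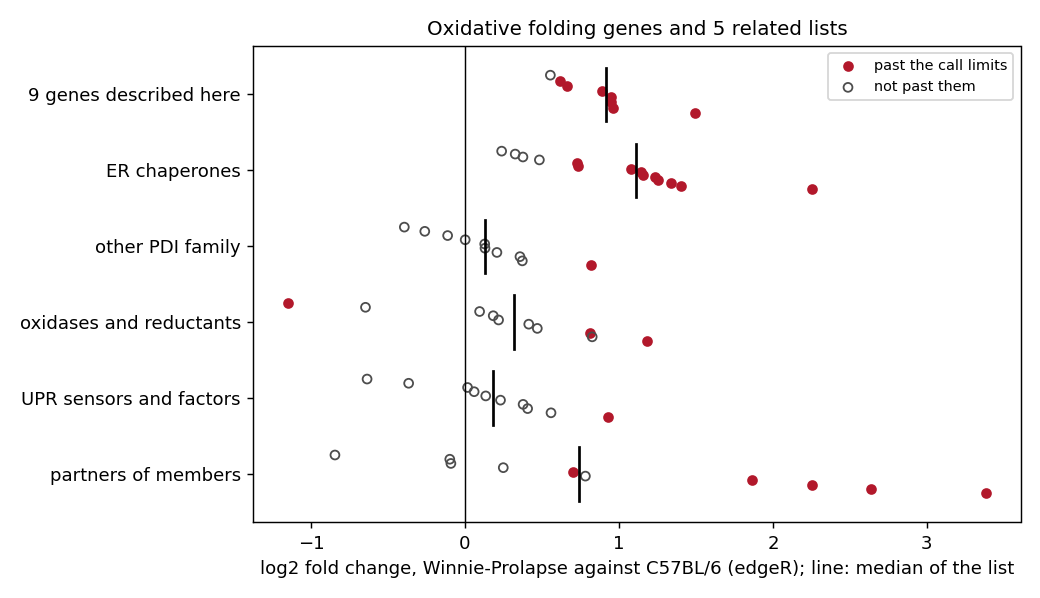
Log2 fold change in Winnie-Prolapse against C57BL/6 of each gene tested among the 9 genes described here and in 5 related lists, with filled red points for genes past the call limits and a black line at the median of each list. The ER chaperones had a median of 1.11 with 10 of 14 called, and the other PDI family members a median of 0.13 with 1 of 10 called.

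Of 10 known partners of the members, 5 were called higher in Winnie-Prolapse, against 9.84% of all genes. They were the MHC class I genes that work with Pdia3, with log2 fold changes of 2.25 ± 0.18 for B2m, 3.38 ± 0.15 for the peptide transporter Tap1 and 0.70 ± 0.11 for the loading factor Tapbp, and the dual oxidase genes that work with Txndc11, with 1.86 ± 0.38 for Duox2 and 2.63 ± 0.41 for Duoxa2. The alpha subunits that form prolyl 4-hydroxylase with P4hb were not called, with -0.09 ± 0.15 for P4ha1, 0.25 ± 0.23 for P4ha2 and -0.10 ± 0.38 for P4ha3. Mttp, the lipid transfer protein that needs P4hb, had 0.78 ± 0.20 with group means of 2.96 to 4.85 CPM and was not called. In Winnie against C57BL/6 edgeR called 0 of 10 partners, while 10 of 10 had an unadjusted p under 0.05 against 39.9% of all genes, among them Tap1 at 2.76 ± 0.39 and P4ha3 at -1.09 ± 0.32.

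Sex was not used in choosing the genes and could be tested. Males and females did not pass the limit for any member in the edgeR fit with group as a covariate (0 of 9 at an adjusted p under 0.05, 0 of 9 at an unadjusted p under 0.05), where 0.0768% of all genes had an adjusted and 4.49% an unadjusted p under 0.05, and DESeq2 and limma-voom also called 0 of 9. The largest difference in size was that of Agr2, with a log2 fold change of -0.19 ± 0.16 for males against females. The test of whether the Winnie difference itself depended on sex gave 0 of 9 at an adjusted p under 0.05, against 0.247% of all genes, and 0 of 9 at an unadjusted p under 0.05, against 18.2%. In Winnie-Prolapse the same test gave 0 of 9 members and 0.0% of all genes. Here 2 members had an unadjusted p under 0.05, against 4.4% of all genes, with a smaller difference in males than in females, Pdia3 by -0.44 ± 0.15 and Pdia4 by -0.50 ± 0.21 on the log2 scale (-0.29 without Winnie-Prolapse replicate 6), and both had an adjusted p of 1.0 by edgeR's quasi-likelihood test with Benjamini-Hochberg adjustment. In males alone and in females alone, no member was called in either comparison with C57BL/6, where the groups held 3 or 4 libraries. Over all genes these fits called 130 in males and 0 in females for Winnie, and 307 and 255 for Winnie-Prolapse.

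Within each group, 3 pairs of genes were compared across libraries as log2 CPM, with exact two-sided permutation tests adjusted over the 9 relations. Agr2 went with Muc2 in Winnie, with Pearson's r of 0.950 (n = 7, exact permutation adjusted p = 0.00714) and Spearman's rho of 0.929 (exact permutation adjusted p = 0.0304), and r was 0.955 without the 2 libraries farthest from the Muc2 median. In C57BL/6 the relation had r = 0.849 (n = 8, exact permutation adjusted p = 0.00714) and rho = 0.810 (exact permutation adjusted p = 0.0503). It rested on the outlying libraries there, with r = 0.592 without the 2 farthest and r = 0.714 (exact permutation adjusted p = 0.0881) without C57BL/6 replicate 7. In Winnie-Prolapse r was 0.624 and rho 0.643 (n = 7, exact permutation adjusted p = 0.169 and 0.179), and r was 0.0763 without the 2 farthest libraries. Whether r differed between the groups was not tested. Winnie replicates 3, 5 and 7 had the lowest Agr2 and the lowest Muc2 of their group. They also had its highest smooth muscle marker sums, at 7925, 7244 and 5810 CPM. The part of tissue composition in the relation of Agr2 with Muc2 was not tested.

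**Figure D5:**
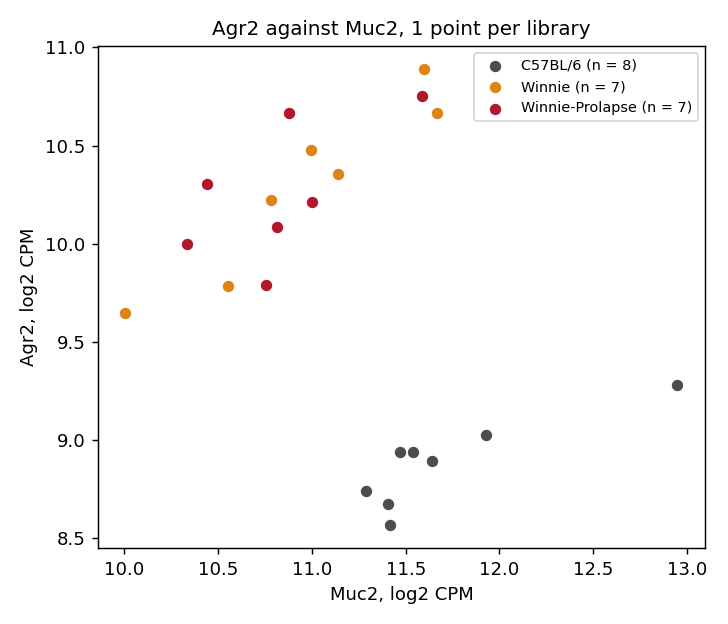
Agr2 against Muc2 in log2 CPM, 1 point per library, coloured by group. Within the Winnie libraries the 2 genes rose together (r = 0.950, n = 7), and for a given Muc2 level the C57BL/6 libraries held less Agr2 than those of the other groups.

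Pdia4 and Hspa5 had positive correlations in each group, whose adjusted p no longer passed without C57BL/6 replicate 7, without Winnie replicates 2, 3 or 5, or without Winnie-Prolapse replicates 2, 5, 6 or 7. Pearson's r was 0.852 in C57BL/6 (n = 8, exact permutation adjusted p = 0.00714), 0.953 in Winnie (n = 7, exact permutation adjusted p = 0.00893) and 0.852 in Winnie-Prolapse (n = 7, exact permutation adjusted p = 0.0268). Spearman's rho was 0.786, 0.750 and 0.929, with exact permutation adjusted p-values of 0.0503, 0.0994 and 0.0304. Without the 2 libraries farthest from the Hspa5 median r was 0.692, 0.758 and 0.485, so that the relation in Winnie-Prolapse leaned on those 2 libraries. Txndc5 and Jchain, the antibody-joining chain made by plasma cells, gave no relation that passed, with r of 0.291, 0.713 and -0.584 (n = 8, 7 and 7, exact permutation adjusted p = 0.504, 0.104 and 0.190) and rho of 0.500, 0.857 and -0.393 (exact permutation adjusted p = 0.243, 0.0503 and 0.396). Without the 2 farthest libraries r was 0.214, 0.599 and -0.695.

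Likeness among libraries was also described over all 22, after subtracting each group's mean log2 CPM. No test was made, since all genes share the libraries, their depth and their mix of cell types. Among pairs of the 8 more abundant members r ran from 0.14 for Agr2 with Txndc11 to 0.85 for Agr2 with Pdia6 and for Pdia4 with Pdia6. Of 13589 genes compared, the 5 most like Agr2 were Tspan13 (r = 0.88), Pycr1 (0.85), Spink4 (0.84), Muc2 (0.80) and Mia3 (0.80). Spink4 is a goblet cell product and Mia3 exports bulky cargo from the ER. Tspan13, a tetraspanin, is the protein-coding gene next to Agr2 on the side away from Agr3, at chr12:36014557-36042500 on the minus strand, 10469 bases from Agr2. Tspan13 was at 82.2 ± 11.4, 98.8 ± 18.7 and 93.4 ± 16.2 CPM in C57BL/6, Winnie and Winnie-Prolapse (SD, n = 8, 7 and 7), and was not called, with log2 fold changes of 0.36 and 0.27. The 5 genes most like Pdia4 were Hsp90b1 (0.94), Dnajc3 (0.91), Asns (0.91), Sec61a1 (0.90) and Rpn1 (0.90), which are an ER chaperone, a chaperone cofactor, asparagine synthetase, the channel of the ER translocon and a subunit of the oligosaccharyltransferase. Asns differed most of these, with 18.1 ± 4.3, 41.2 ± 15.2 and 79.9 ± 25.7 CPM in the same order.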

How the data were processed

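The deposited table held raw read counts per gene and library, made by the authors with the RNAsik pipeline (STAR and featureCounts, GRCm38, per the submitters' processing notes), from stranded paired-end libraries; limma is also named there. Counts of 22 libraries were used as deposited. CPM divided a count by the library's total. Python 3.11.15 and R 4.3.3 were used. edgeR 4.0.16 (TMM, filterByExpr, quasi-likelihood F test, Benjamini-Hochberg over all genes tested) fitted each comparison on its own groups, and DESeq2 1.42.0, limma 3.58.1 (voom), other filters and scalings, sexes apart, each library left out and, chosen after seeing the data, a bias-adjusted fit and levels without 2 libraries were alternatives. The scripts were tested on simulated data. log2 CPM for correlations used a prior count of 2. No replicates were identical. That the libraries are separate mice is taken from their labels, so p-values measure the spread between these samples. Gene positions and exon lengths came from GENCODE (GRCm38) and promoters from RefSeq.

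The members and lists were chosen with earlier results of these data known. Named were the 9 members, the 4 genes of highest mean CPM in each pathway list, the called genes of a list with few calls (chosen after their values were seen), all 10 partners, the 5 genes most like Agr2 and Pdia4 and at most 2 genes per marker list. Spink4 and Clca1 were named as the called goblet markers after their values were seen.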

Additional observations from a re-analysis of the deposited data

Results flagged for a closer look

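In 42 sets of 7 or 8 library values examined, 2 were flagged for a library far from the others of its group, and chance flags about 1 in 20. Both concern C57BL/6 replicate 7. Its Agr2 CPM per Muc2 CPM was 0.0786, the lowest of 8, against a group median of 0.149. Its Agr2 made up 30.7% of the CPM of the 9 members, the highest of 8, against a group median of 26.6%. The same library had the highest Muc2 of its group, 7901 CPM, and the highest Agr2, 620.8 CPM. It also had the lowest goblet cell marker sum of its group, 4270 CPM for a list without Muc2 and Agr2, and the highest smooth muscle marker sum, 13035 CPM.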

How the results depend on the processing

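No paired analysis was possible because the replicate numbers follow accession order and pair no mice. Of the members, 1 was called in Winnie against C57BL/6, a count that was 5 with DESeq2, 5 at an adjusted p under 0.05, 2 with all 3 groups in 1 fit (1.12% of all genes called), 0 in males alone (0.74%), 0 with limma-voom, with at least 10 counts in every library and in females alone, fits that called 0 genes in all, and 0 to 5 when 1 library was left out. In Winnie-Prolapse 7 became 0 in males alone (1.76% of all genes called) and 0 in females alone (1.45%), and 6 to 8 with 1 library left out. Of the pathway list genes, 0 called in Winnie became 10 with DESeq2 (4.11% of all genes called) and 1 without the low-count filter (0.232%). The count was 2 with 3 groups in 1 fit (1.12%) and 1 in males alone (0.74%). With 1 library left out it was 0 to 9, the 9 without Winnie replicate 5 (3.89%). At an adjusted p under 0.05 with 1.5-fold it was 16, where 1282 of 17289 genes passed higher and 1475 lower. The 20 in Winnie-Prolapse became 6 in males alone (1.76%) and 4 in females alone (1.45%). Between the mutant groups 0 became 2 at an adjusted p under 0.05, where 727 of 17041 genes passed higher and 464 lower. Over all genes, 16 called in Winnie became 1203 with DESeq2, and 0 between the mutant groups became 644. The cause was not tested. The log2 fold change between the mutant groups turned in males alone for Agr2 (0.055), Txndc5 (-0.109) and Txndc11 (-0.061), and for Agr2 it ran from -0.158 to 0.070 with 1 library left out. No fold change of the 8 members against C57BL/6 turned under any alternative run. With 1 library left out, r of Agr2 with Muc2 ran from 0.714 to 0.906 in C57BL/6, 0.921 to 0.965 in Winnie and 0.257 (without replicate 1) to 0.718 in Winnie-Prolapse, r of Txndc5 with Jchain from 0.0205 (without replicate 5) to 0.759 (without replicate 7) in C57BL/6, 0.569 to 0.812 in Winnie and -0.704 to -0.304 in Winnie-Prolapse, and r of Pdia4 with Hspa5 from 0.805 to 0.919 in C57BL/6, 0.903 to 0.983 in Winnie and 0.787 to 0.918 in Winnie-Prolapse, and the adjusted p no longer passed without C57BL/6 replicate 7, without Winnie replicates 2, 3 or 5, or without Winnie-Prolapse replicates 2, 5, 6 or 7. With TMM scaling r of Txndc5 with Jchain in Winnie became 0.803 (exact permutation adjusted p = 0.0420). Depth limits Agr3 alone, at 0 to 16 counts per library.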
